A study of Mus musculus with 9 samples.

Results

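The genes of the mitochondrial ribosome were followed in mouse embryonic stem cells (ESCs) that stably carried Foxj3 or Zbtb18. Members were the rows of the expression table that were typed as mRNA and whose symbol was Mrpl or Mrps followed by a number, which gave 76 of 44788 rows, 47 of them named Mrpl and 29 named Mrps. RNA was sequenced from 3 libraries of Foxj3-ES, 3 of Zbtb18-ES and 3 of control cells. All were J1 cells, a mouse ESC line grown without feeder cells and with LIF, and no differentiation step is described for these libraries. The lines had been infected with pCDH-Puro lentivirus that held the coding part of Foxj3 (Foxj3-ES) or of Zbtb18 (Zbtb18-ES), while the labels call the control cells wild type. No source says whether a line came from 1 clone or whether the control received an empty vector, so the viral vector and the gene it carried cannot be told apart. Nor is it said whether the 3 libraries per group are separate cultures. Their p-values therefore cover the spread among these libraries alone, which may be technical. Values were UQRPKM, which are reads per length of the gene, divided by the library's upper quartile.

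Mitochondria translate the few mRNAs of their own genome, which encode core subunits of the respiratory chain and ATP synthase, on a ribosome of their own. Its rRNAs come from mitochondrial DNA, but each of its proteins is encoded in the nucleus, made in the cytosol and imported. The large subunit forms peptide bonds and the small subunit reads the mRNA. Many of these proteins descend from bacterial ribosomal proteins and others are found only in mitochondria. Despite their symbols, the products of Mrps30 and Mrps18a lie in the large subunit, and that of Mrps36 belongs to the oxoglutarate dehydrogenase complex. The 76 members were therefore divided into 49 of the large subunit, 26 of the small subunit and Mrps36, and by descent into 47 with a bacterial homologue and 28 specific to mitochondria.

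The upstream sequences of 4 members that differed in the comparisons given further on are shown because the members are spread over 17 chromosomes and share no locus. They are the bases just before the annotated start, 5′ to 3′ on the strand of the gene, from RefSeq (GRCm38.p6), and they hold no annotated exon. Mrpl52 (mitochondria-specific, large subunit) and Mrpl42 (mitochondria-specific, large subunit) were higher in Foxj3-ES than in control cells, as was Mrps23 (mitochondria-specific, small subunit), and Mrpl37 (mitochondria-specific, large subunit) was lower. Capitals mark a match to 1 of 5 motifs on either strand.
Mrpl52, chr14:54426789-54426908, plus strand: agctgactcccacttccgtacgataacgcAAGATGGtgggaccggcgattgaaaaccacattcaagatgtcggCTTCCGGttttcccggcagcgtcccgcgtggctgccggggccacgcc
Mrpl42, chr10:95501950-95502069, minus strand: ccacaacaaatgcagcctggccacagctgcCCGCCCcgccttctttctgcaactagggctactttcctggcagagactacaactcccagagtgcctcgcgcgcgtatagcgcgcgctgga
Mrps23, chr11:88204268-88204387, plus strand: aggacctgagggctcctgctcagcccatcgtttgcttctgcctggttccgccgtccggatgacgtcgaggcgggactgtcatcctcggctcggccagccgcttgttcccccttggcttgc
Mrpl37, chr4:107066869-107066986, minus strand: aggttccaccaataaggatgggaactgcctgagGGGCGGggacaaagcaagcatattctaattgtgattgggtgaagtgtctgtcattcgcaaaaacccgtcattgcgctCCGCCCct

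Mrpl52 held a YY1 motif (AAGATGG) 85 to 91 bases before its start and an ETS motif (CCGGAAG, here as its reverse complement) at 41 to 47 bases. Mrpl42 held an SP1 motif (GGGCGG, reverse complement) at 85 to 90 bases. Mrpl37 held that motif at 82 to 87 and, as the reverse complement, at 5 to 10 bases, and the stretch of Mrps23 held none of the 5. For Mrpl37 the letters shown stop slightly short of the start from which these distances were counted. These stretches are shorter than the promoters counted next, in which Mrps23 also had an ETS motif, Mrpl42 a YY1 motif, and Mrpl37 a YY1 motif and an E-box. RefSeq promoters of 300 bases, from 250 before to 50 after the start, were matched to 67 of the 76 members, which had 73 promoters. The ETS motif, bound by GABPA, lay in 24 of these 73 promoters (32.9%), against 8.86% of 32851 promoters in all and 15.6% of the promoters of tested mRNA genes. The NRF1 motif (GCGCANGC) lay in 28.8% of member promoters, against 9.95% of all and 18% of those of tested mRNA genes. For the YY1 motif these shares were 17.8%, 6.34% and 6.69%. The E-box (CACGTG) lay in 9.59% of member promoters, 7.15% of all and 9.74% of those of tested mRNA genes, and the SP1 motif in 52.1%, 35.7% and 61.0%. The ETS motif ends in the AAG with which the YY1 motif begins, so these sites can overlap, and a match shows letters only.

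All 76 members were expressed and all passed the filter on low values, which asked for 3 libraries or more with a value of 1 or more. Between 10670000 and 14970000 reads per library lay in genes of known length, as recovered from the steps between values. Where steps of 1 or 0.5 reads could be recovered, which left out 10 members, the recovered counts were 45 to 14064 per library with a median of 1148.5. They rest on the smallest gene length that gave such steps. For Mrpl28, which had the highest count, that length was 6390 bases, against 1134 for its longest annotated transcript. The highest count and the median may therefore be well above the true reads. Control library 2 stood apart in base composition. The 10% of genes richest in GC lay 0.99 above the 10% poorest in GC there (log2, relative to the mean of all libraries), against 0.06 and 0.10 in the other controls and -0.53 to 0.21 in the 6 libraries of the lines. The level of Foxj3 was 119, 168 and 177 UQRPKM in Foxj3-ES and 124, 145 and 115 UQRPKM in control cells (limma, adjusted p = 0.388). The level of Zbtb18 was 34.9, 129 and 57.0 UQRPKM in Zbtb18-ES and 46.4, 65.4 and 49.0 UQRPKM in control cells (limma, adjusted p = 0.715). The targeted genes therefore do not separate the groups in this table, and the groups are named as labelled. The ESC marker Pou5f1 was 17825, 17716 and 18268 UQRPKM in Foxj3-ES, 16904 to 20887 UQRPKM in Zbtb18-ES and 13277 to 14115 UQRPKM in control cells, and it did not pass the test in either line (limma, adjusted p = 0.144 in Foxj3-ES, 0.116 in Zbtb18-ES). The summed level of 8 ESC markers was 40200 to 44100 UQRPKM in Foxj3-ES, 46100 to 62900 in Zbtb18-ES and 35200 to 40200 in control cells. The markers did not move together, since Nanog, Sox2 and Esrrb fell in Foxj3-ES, Nanog fell and Dppa5a rose in Zbtb18-ES, while the rest of the 8 did not pass the test. Nanog was 683, 1005 and 796 UQRPKM in Foxj3-ES, 1062, 1345 and 1240 UQRPKM in Zbtb18-ES, against 2591, 1965 and 2417 in control cells (limma, adjusted p = 0.00117 and 0.011). The summed level of 6 neural progenitor markers was 23.6 to 43.7 UQRPKM in Foxj3-ES, 24.2 to 32.2 in Zbtb18-ES and 50.2 to 92.3 in control cells. For 6 mesoderm markers these sums were 37.7 to 44.4, 46.3 to 57.2 and 68.8 to 73.2 UQRPKM, in the same order of groups, and for 7 fibroblast markers, of which 1 was at 0 in all libraries, they were 154 to 237, 68.6 to 102 and 155 to 174 UQRPKM. Trophoblast markers, 7 in number, summed to 794 to 873 UQRPKM in Foxj3-ES, above every other library, with 663 to 765 in Zbtb18-ES and 527 to 783 in control cells. Most of this sum in Foxj3-ES came from Krt8 (334, 428 and 422 UQRPKM) and Krt18 (311, 207 and 292 UQRPKM). Eomes was 28.0, 36.2 and 29.6 UQRPKM in Foxj3-ES, against 58.4, 49.8 and 49.4 in control cells. Of the 7, 3 had a positive and 4 a negative log2 fold change in Foxj3-ES (median -0.17), and none passed the test as higher and 1 as lower. For 6 primitive endoderm markers the sums were 14.4 to 21.1 UQRPKM in Foxj3-ES, 13 to 20.2 in Zbtb18-ES and 25.6 to 27.3 in control cells, where both lines lay below control. The part of such cells in the results below was not tested, and in bulk RNA fewer cells of a type and less RNA per cell cannot be told apart.

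The members' levels covered a 32.5-fold range. Averaged over the 9 libraries, a member had a median of 426 UQRPKM, with the middle of the members between 324 and 573. The median of the tested mRNA genes was 74.2 UQRPKM, and 75 of the 76 members lay above it. Cytosolic ribosomal protein genes, which build the ribosome of the cytoplasm, had a median of 3135 UQRPKM, and nuclear genes for subunits of oxidative phosphorylation had one of 1315. Large-subunit and small-subunit members had similar levels, with medians of 415 and 443 UQRPKM.

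The highest levels were those of Mrpl28 (1799 UQRPKM), Mrpl13 (1763), Mrpl24 (1684), Mrpl40 (1421) and Mrpl12 (1375), of which only Mrpl40 has no bacterial homologue. The product of Mrpl12 forms the stalk that recruits translation factors to the large subunit. They were followed by Mrps16 (1231 UQRPKM), Mrpl21 (1158), Mrpl2 (1032), Mrpl42 (962) and Mrps5 (923). Mrpl28 was 1616, 1669 and 2009 UQRPKM in Foxj3-ES, 1519, 1606 and 1848 UQRPKM in Zbtb18-ES, against 2057, 1982 and 1888 in control cells, and its Foxj3-ES and control libraries overlapped. The lowest levels were those of Mrpl19 (55.4 UQRPKM), Mrps25 (76.1), Mrpl23 (79.3), Mrpl35 (97.7) and Mrpl17 (112). Mrpl19 was 46.0, 60.1 and 59.2 UQRPKM in Foxj3-ES, 47.6, 60.2 and 48.5 UQRPKM in Zbtb18-ES, against 57.3, 54.5 and 65.0 in control cells, so that all 3 groups overlapped. Libraries of a group repeated well for most members. The median coefficient of variation was 12.3% in Foxj3-ES, 13.2% in Zbtb18-ES and 13% in control cells, and the highest was 62.2%, for Mrps21 in control cells.

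The first comparison set Foxj3-ES against control cells. In Foxj3-ES, 13 of the 76 members rose and 2 fell, and 61 did not pass the test. The members that rose most were large-subunit genes, Mrpl21, Mrpl13, Mrpl42 and Mrpl52, each at 2.31 to 2.78 times its control level, and they were the 4 members that both passed the test and changed by over 2-fold. A share of 17.1% of members rose, against 7.54% of the 22268 rows tested, and 2.63% fell, against 7.01%. The tested rows include many with low values. When only the 16086 rows with 10 UQRPKM or more in at least 3 libraries were fitted, 11.3% of them rose and 10.3% fell. That is a separate fit with its own adjustment, while the members' shares above are from the fit of all 22268 rows. None of the members' calls was lost in it, and members newly called there are not given here. The median log2 fold change of the members was 0.24, beside -0.03 for all rows tested and -0.10 for tested mRNA genes, but it was -0.11 once all libraries had been brought to an equal sum, where the median of all rows was -0.35. Relative to the median of all rows, the members' median was thus higher by 0.28 in the deposited values and by 0.24 after rescaling, but by only 0.13 with a correction for GC content and length. The counts moved more, to 6 members higher and 12 lower with that rescaling, when of all rows 3.92% were higher and 21.1% lower. A positive fold change was seen for 57 of the 76 members (75%), against 47.8% of all rows.

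**Figure D1:**
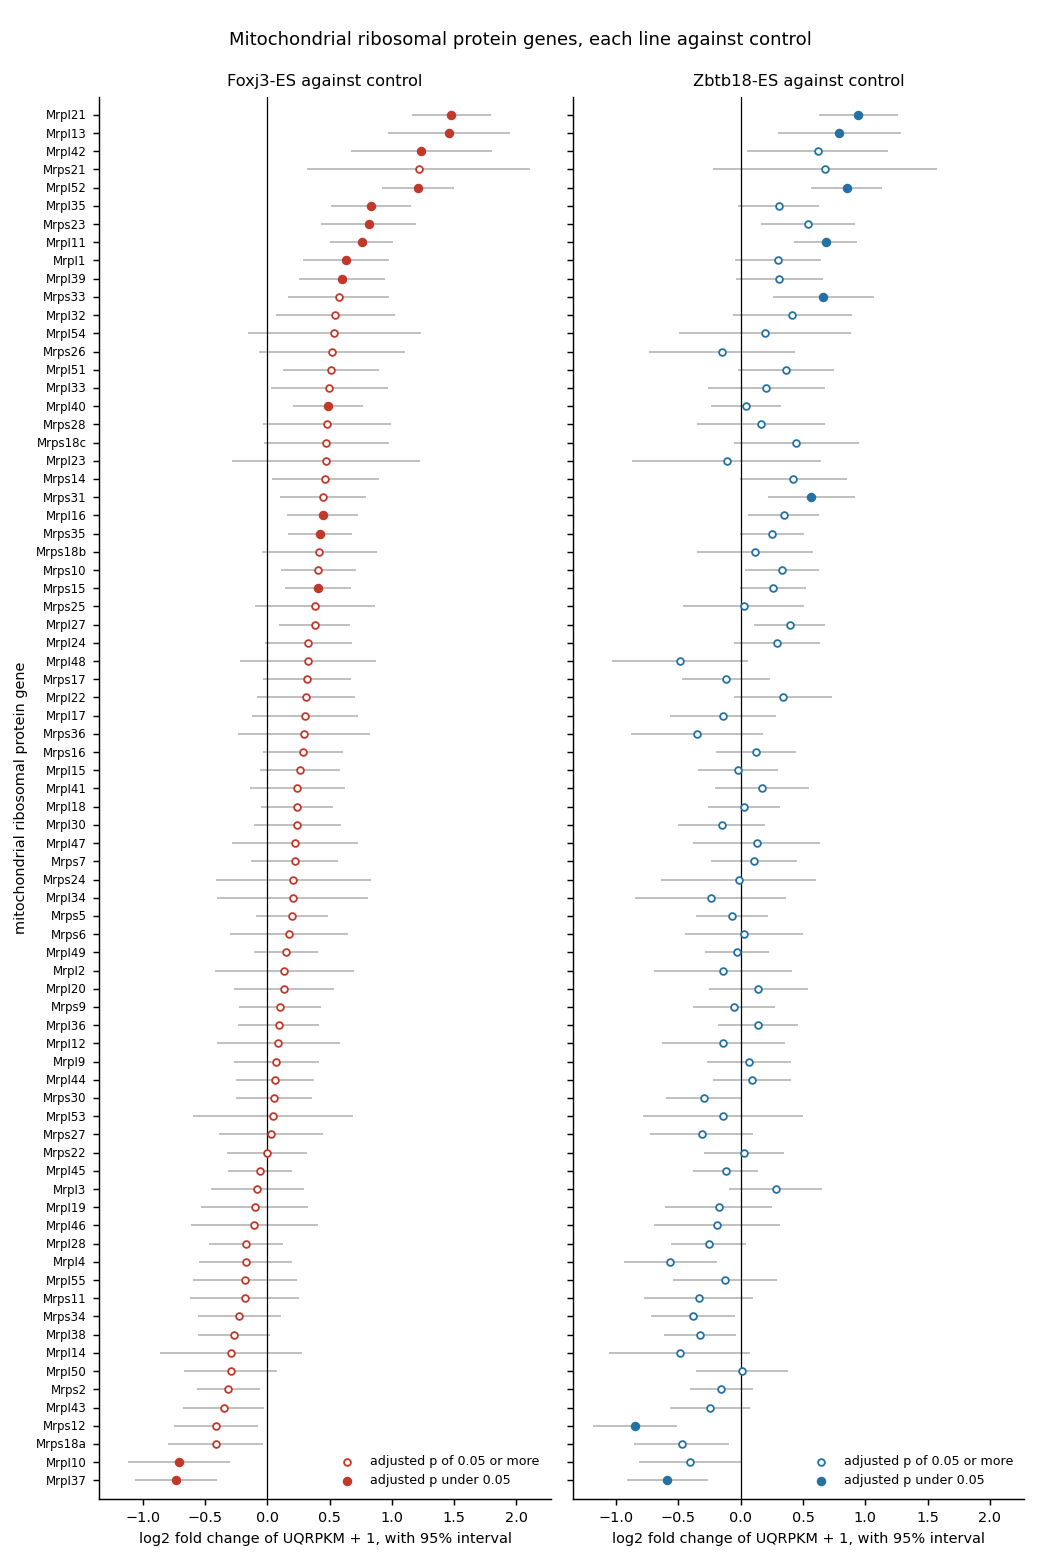
Log2 fold change of each of the 76 members, on the scale of log2(UQRPKM + 1), in Foxj3-ES (left) and Zbtb18-ES (right) against control, with the 95% interval of limma as a grey line and filled points for an adjusted p under 0.05. The 15 filled points on the left run from -0.73 (Mrpl37) to 1.48 (Mrpl21) and the 8 on the right from -0.85 (Mrps12) to 0.94 (Mrpl21), in the deposited scaling.

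Among proteins with a bacterial homologue, the largest change was that of Mrpl21, whose product is a core protein of the large subunit. Mrpl21 (ENSMUSG00000024829.12, chr19:3282901-3292837, mm10) was 1735, 1514 and 1837 UQRPKM in Foxj3-ES and 542, 720 and 571 UQRPKM in control cells. The groups did not overlap, and the log2 fold change was 1.48 ± 0.14 (SE, limma, adjusted p = 6.08e-04). Mrpl13 (ENSMUSG00000022370.13, chr15:55534094-55557748), another large-subunit protein with a bacterial homologue, was 2634, 2913 and 2351 UQRPKM in Foxj3-ES and 740, 1372 and 858 UQRPKM in control cells. Its lowest Foxj3-ES library lay above control library 2, which was the highest of the controls, and the log2 fold change was 1.46 ± 0.22 (SE, adjusted p = 0.00335). Mrpl11, whose product sits where translation factors bind, was 340, 346 and 364 UQRPKM in Foxj3-ES and 197, 212 and 211 UQRPKM in control cells. The spread within each group was small beside the difference, which was 0.76 ± 0.11 on the log2 scale (SE, adjusted p = 0.00321). Mrpl35, one of the least abundant members, was 133, 130 and 127 UQRPKM in Foxj3-ES and 66.1, 77.8 and 74.4 UQRPKM in control cells, with a log2 fold change of 0.83 ± 0.15 (SE, adjusted p = 0.00612).

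Mrpl1, which forms the other stalk of the large subunit, was 211, 174 and 158 UQRPKM in Foxj3-ES and 109, 111 and 127 UQRPKM in control cells. Its groups did not overlap, and its log2 fold change was 0.63 (adjusted p = 0.0249). The remaining members with a bacterial homologue that rose were Mrpl16 of the large subunit (log2 fold change 0.44, adjusted p = 0.0442) and Mrps15 of the small subunit (0.41, adjusted p = 0.0469).

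Among the proteins found only in mitochondria, Mrpl52 (ENSMUSG00000010406.12, chr14:54426909-54429756) was 1078, 899 and 1124 UQRPKM in Foxj3-ES and 406, 477 and 452 UQRPKM in control cells. The lowest Foxj3-ES library was well above the highest control, and the log2 fold change was 1.21 ± 0.13 (SE, limma, adjusted p = 8.44e-04). Mrpl42 (chr10:95480805-95501940) was 1160, 1581 and 1385 UQRPKM in Foxj3-ES and 422, 748 and 614 UQRPKM in control cells, a log2 fold change of 1.24 ± 0.25 (SE, adjusted p = 0.012). Mrps23, of the small subunit, was 1135, 1032 and 1027 UQRPKM in Foxj3-ES and 697, 623 and 509 UQRPKM in control cells, a log2 fold change of 0.81 ± 0.17 (SE, adjusted p = 0.0127). In all 3 genes every Foxj3-ES library lay above every control. Mrpl39 (0.60, adjusted p = 0.0307), Mrpl40 (0.49, adjusted p = 0.0289) and Mrps35 (0.42, adjusted p = 0.0371) also rose, by smaller log2 fold changes. Mrpl40 varied little within Foxj3-ES, with 1729, 1734 and 1759 UQRPKM in Foxj3-ES, against 1286, 1310 and 1128 UQRPKM in control cells.

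The 2 members that fell in Foxj3-ES also belong to the large subunit. Mrpl37 (ENSMUSG00000028622.11, chr4:107055874-107066868), which is specific to mitochondria, was 344, 425 and 510 UQRPKM in Foxj3-ES and 684, 714 and 702 UQRPKM in control cells. The Foxj3-ES libraries varied more than the controls but did not reach them, and the log2 fold change was -0.73 ± 0.15 (SE, adjusted p = 0.0112). Mrpl10, whose product anchors the copies of Mrpl12 in the stalk, was 312, 222 and 367 UQRPKM in Foxj3-ES and 530, 412 and 512 UQRPKM in control cells, a log2 fold change of -0.71 ± 0.18 (SE, adjusted p = 0.0296). Its partner Mrpl12 was 1347, 1408 and 1621 UQRPKM in Foxj3-ES and 1009, 1852 and 1363 UQRPKM in control cells, where control library 2 was the highest of all 9.

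By subunit, 10 large-subunit members rose (20.4%) and 2 fell (4.08%) of 49, beside 7.54% and 7.01% of all rows, with a median log2 fold change of 0.22. Of the 26 small-subunit members 3 rose (11.5%) and none fell, with a median of 0.35. Members with a bacterial homologue had 7 higher (14.9%) and 1 lower (2.13%) of 47, with a median of 0.24. Those specific to mitochondria had 6 higher (21.4%) and 1 lower (3.57%) of 28, with a median of 0.20, and differences between these classes were not tested. Every Foxj3-ES library lay above every control in 24 members (31.6%), against 16.7% of all rows, and below every control in 7 members (9.21%), against 18.5%.

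The calls of 7 members, namely Mrpl21, Mrpl13, Mrpl42, Mrpl52, Mrpl35, Mrpl11 and Mrpl37, held under all 22 alternative settings, in which scaling, filter, pseudocount, fit or 1 left-out library was changed. The other 8 calls were each lost without at least 1 of the 9 libraries, 7 in each case when control library 1, control library 3, Foxj3-ES library 1 or Foxj3-ES library 2 was left out. Without any 1 of these 4, 7 members were higher and 1 lower. Without control library 2, which stood apart, 14 members were higher and 3 lower, and the median was 0.30.

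**Figure D2:**
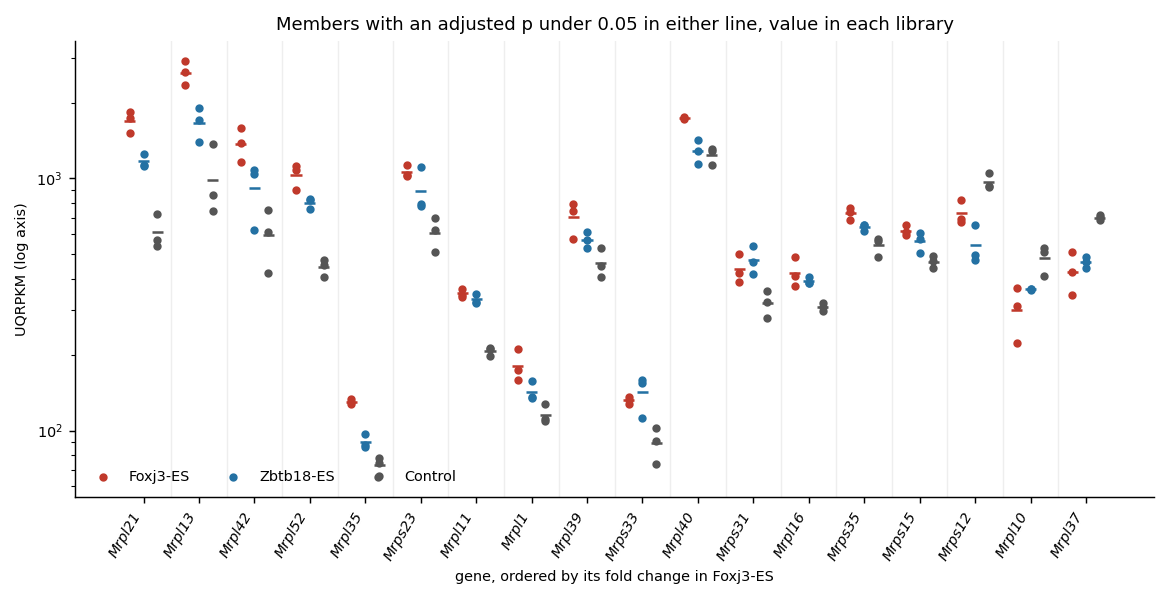
UQRPKM on a log axis of the 18 members with an adjusted p under 0.05 in either line, each point 1 library and each bar a group mean, with Foxj3-ES, Zbtb18-ES and control from left to right for each gene. Mrpl21 had 1514 to 1837 UQRPKM in Foxj3-ES, 1123 to 1247 in Zbtb18-ES and 542 to 720 in control cells, while Mrps12 and Mrpl37 show the reverse order of line and control.

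The second comparison set Zbtb18-ES against the same control cells. In Zbtb18-ES, 6 of the 76 members rose and 2 fell, by less than 2-fold in each case, and 68 did not pass the test. The share that rose was 7.89%, against 5.31% of all rows tested, which is close to the background, and the share that fell was 2.63%, against 6.5%. The median log2 fold change of the members was 0.03, beside -0.02 for all rows, and -0.13 with all libraries at an equal sum, beside -0.16 for all rows. That rescaling gave 3 members higher and 7 lower, and of all rows 4.03% higher and 12.3% lower.

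Mrpl21 was 1123, 1247 and 1136 UQRPKM in Zbtb18-ES and 542, 720 and 571 UQRPKM in control cells, a log2 fold change of 0.94 ± 0.14 (SE, limma, adjusted p = 0.0047). Mrpl52 was 823, 756 and 828 UQRPKM in Zbtb18-ES and 406, 477 and 452 UQRPKM in control cells, a log2 fold change of 0.85 ± 0.13 (SE, adjusted p = 0.00478). Mrpl11 was 322, 325 and 349 UQRPKM in Zbtb18-ES and 197, 212 and 211 UQRPKM in control cells, a log2 fold change of 0.68 ± 0.11 (SE, adjusted p = 0.00679). In these 3 genes the groups were far apart for their spread. Mrpl13 was 1701, 1903 and 1398 UQRPKM in Zbtb18-ES and 740, 1372 and 858 UQRPKM in control cells, and its lowest Zbtb18-ES library was only slightly above control library 2 (log2 fold change 0.79 ± 0.22, SE, adjusted p = 0.0444). The products of 2 other members that rose, Mrps33 and Mrps31, are small-subunit proteins specific to mitochondria. Mrps33 was 159, 112 and 154 UQRPKM in Zbtb18-ES and 102, 74.0 and 91.1 UQRPKM in control cells (0.66, adjusted p = 0.0425). Mrps31 was 541, 418 and 466 UQRPKM in Zbtb18-ES and 323, 279 and 358 UQRPKM in control cells (0.57, adjusted p = 0.0421).

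The member that fell most in Zbtb18-ES was Mrps12 (ENSMUSG00000045948.8, chr7:28739641-28741820), whose product lies at the decoding site of the small subunit. It was 499, 654 and 474 UQRPKM in Zbtb18-ES and 930, 1047 and 926 UQRPKM in control cells. The groups did not overlap, and the log2 fold change was -0.85 ± 0.15 (SE, limma, adjusted p = 0.00916). In Foxj3-ES the same gene was 823, 675 and 690 UQRPKM, also below every control, and did not pass the test (-0.41, adjusted p = 0.0991). Mrpl37 was 468, 486 and 443 UQRPKM in Zbtb18-ES and 684, 714 and 702 UQRPKM in control cells, a log2 fold change of -0.59 ± 0.15 (SE, adjusted p = 0.0304).

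Every Zbtb18-ES library lay above every control in 18 members (23.7%), against 14.8% of all rows, and below every control in 13 (17.1%), against 20.0%. The calls of Mrpl21, Mrpl52, Mrpl11 and Mrps12 held under all 22 alternative settings. Those of Mrpl13, Mrps33, Mrps31 and Mrpl37 were each lost without at least 1 library, all 4 of them when control library 1, control library 3, Zbtb18-ES library 1 or Zbtb18-ES library 3 was left out. The members higher numbered 3 without any 1 of these 4, or without Foxj3-ES library 2 or 3, and 1 member was lower without any 1 library of Zbtb18-ES or control. Both lines were compared with the same 3 control libraries. In these comparisons Mrpl21, Mrpl13, Mrpl52 and Mrpl11 were higher in both lines and Mrpl37 was lower in both.

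The 2 lines were also compared directly. No member passed the test between Zbtb18-ES and Foxj3-ES (limma, lowest adjusted p = 0.116), and of all rows 0.328% were higher and 0.359% lower. At an unadjusted p under 0.05, 15 members differed, all lower in Zbtb18-ES, which is 19.7% of members, against 16.2% of all rows in either direction. The median log2 fold change of the members was -0.16 in Zbtb18-ES against Foxj3-ES, beside -0.02 for all rows, and 0.03 with all libraries at an equal sum, beside 0.16 for all rows. Every Zbtb18-ES library lay below every Foxj3-ES library in 20 members (26.3%), against 12.1% of all rows, and above in 3 (3.95%), against 9.29%.

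The smallest p-values were those of Mrpl21, Mrpl35 and Mrpl40. Mrpl21 was 1123, 1247 and 1136 UQRPKM in Zbtb18-ES and 1735, 1514 and 1837 UQRPKM in Foxj3-ES, with a log2 fold change of -0.53 (95% interval -0.85 to -0.22). Mrpl35 was 85.9, 87.7 and 96.5 UQRPKM in Zbtb18-ES and 133, 130 and 127 UQRPKM in Foxj3-ES, with a log2 fold change of -0.53 (interval -0.85 to -0.21). Mrpl40 was 1290, 1137 and 1419 UQRPKM in Zbtb18-ES and 1729, 1734 and 1759 UQRPKM in Foxj3-ES, with a log2 fold change of -0.45 (interval -0.73 to -0.17). In each of these genes the lines did not overlap, yet none passed the test over all rows.

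The summed level of the 76 members was 44343, 43227 and 46529 UQRPKM in Foxj3-ES, 38808, 40160 and 35556 UQRPKM in Zbtb18-ES, against 33600, 39182 and 36363 in control cells. All 3 Foxj3-ES libraries lay above all others, while Zbtb18-ES and control overlapped. As a share of the summed values of all rows, the members took 0.527, 0.535 and 0.564% in Foxj3-ES, 0.521, 0.563 and 0.504% for Zbtb18-ES, against 0.539, 0.570 and 0.573% in control cells. On that scale the Foxj3-ES and control libraries overlapped, and the order of the means was reversed. The sum of all values was itself higher in the lines, between 7054409 and 8416870, against 6229486 to 6874835 in control cells. The ratio of the summed large-subunit to small-subunit level was 2.12 ± 0.0503 in Foxj3-ES, 2.06 ± 0.0643 in Zbtb18-ES and 2.05 ± 0.0346 in control cells (SD, n = 3 each).

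**Figure D3:**
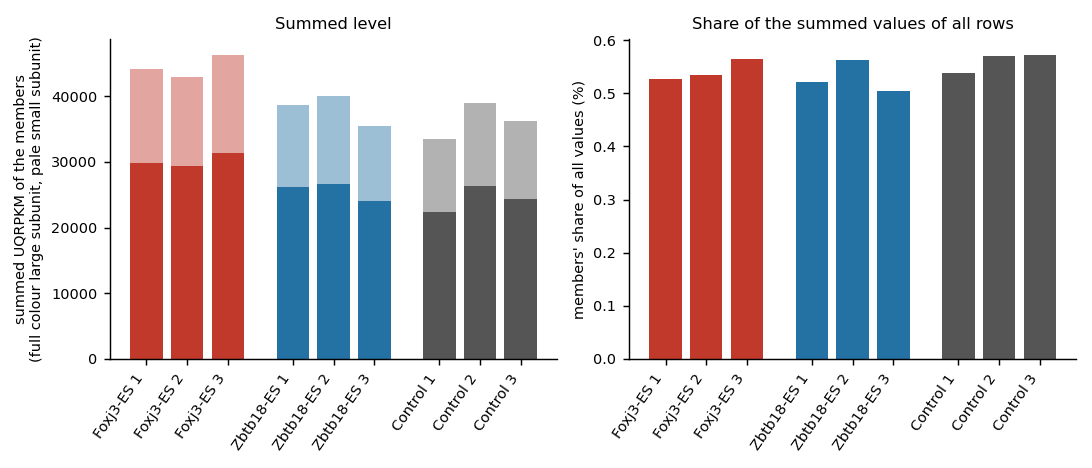
Summed UQRPKM of the members in each library (left, full colour for the large and pale for the small subunit; Mrps36 is left out of these bars) and the members' share of the summed values of all rows in percent (right). The sums were 43227 to 46529 in Foxj3-ES and 33600 to 39182 in control cells, while the shares overlapped.

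Some members have processed pseudogenes, copies of their mRNA elsewhere in the genome, and reads from a member may have been counted on its copy or the reverse. A copy at 95% identity or more over at least 200 bases, with a row of its own in the table, was found for 13 members. These 13 all had a positive fold change in Foxj3-ES, with a median of 0.51, against 0.20 for the 63 without such a copy, of which 11 rose and 2 fell. In Zbtb18-ES the medians were 0.36 and 0.02. Mrpl21 has the copy D9Wsu149 (97.2% identity over 565 bases), which was 156, 183 and 137 UQRPKM in Foxj3-ES, 107, 140 and 94.5 UQRPKM in Zbtb18-ES, against 55.2, 56.0 and 76.3 in control cells. Mrpl42 has the copy Gm6419 (97.2% over 216 bases), at 607, 488 and 441 UQRPKM in Foxj3-ES, 350, 430 and 257 UQRPKM in Zbtb18-ES, against 139, 209 and 172 in control cells. Both copies moved in the same direction as the genes they resemble, and the share of reads that belongs to each cannot be told apart. The values of Mrpl21 and Mrpl42 are uncertain for that reason. So is that of Mrps33, whose copy Gm5776 is 99.7% identical over 321 bases and was 183, 107 and 141 UQRPKM in Foxj3-ES, 189, 111 and 194 UQRPKM in Zbtb18-ES, against 145, 66.3 and 130 in control cells.

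Mrps21 had one of the largest fold changes in Foxj3-ES without passing the test. It was 580, 612 and 605 UQRPKM in Foxj3-ES and 127, 494 and 272 UQRPKM in control cells, a log2 fold change of 1.22 ± 0.40 (SE, limma, adjusted p = 0.0713). Control library 2 was the highest control, and the 3 controls varied more, relative to their mean, than those of any other member. Its copy Gm6181 (97.3% over 264 bases) was 95, 121 and 97.5 UQRPKM in Foxj3-ES and 11.5, 46.9 and 33.9 UQRPKM in control cells. No such copy was found for Mrpl13, Mrpl52, Mrpl11, Mrpl35 or Mrpl37. Only the longest transcript of each member was searched, so a copy of another transcript, or a less similar one, would be missed. Mrpl23 was counted as having no copy, although a row named Mrpl23-ps1 was present. Exons of Mrpl21 overlap those of Ighmbp2 on the other strand, those of Mrpl13 overlap Mtbp and those of Mrpl10 overlap Gm11574, and it is not given in the sources used here whether reads were counted by strand.

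Base composition moved with the fold changes. Over the 76 members, the log2 fold change fell with the GC content of the longest transcript, with Pearson's r = -0.30 and Spearman's rho = -0.35 in Foxj3-ES and r = -0.36 and rho = -0.38 in Zbtb18-ES, both against the same controls. These are descriptions across genes, which are not independent replicates and share libraries and depth. The longest transcript need not be the one that was counted. For Mrpl13 the length recovered from the values was 1572 bases, against 6008 for its longest transcript. The correction for GC content and length used the same longest transcripts. With a correction for GC content and length the members' median in Foxj3-ES was 0.13, beside 0.00 for all rows, with 12 members higher and 5 lower, where 8.93% of all rows were higher and 7.09% lower. The part of base composition in the single calls was not tested further.

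**Figure D4:**
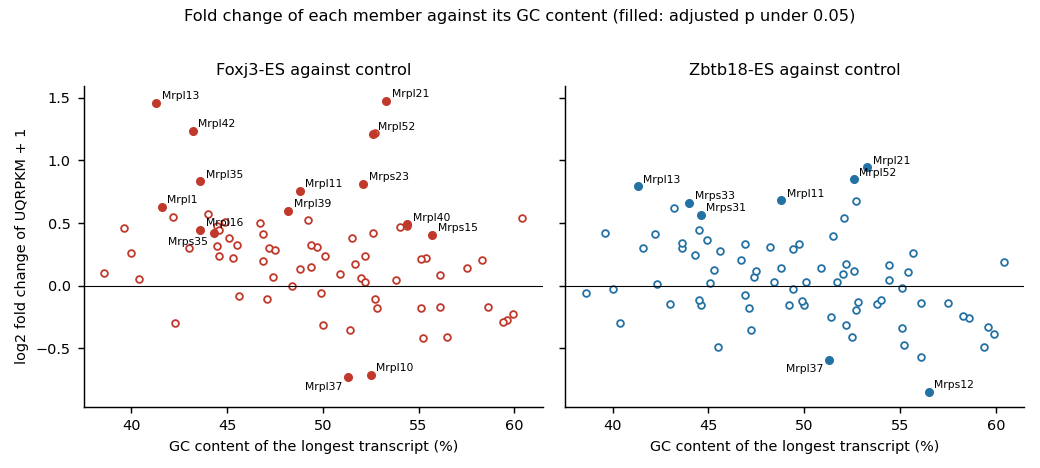
Log2 fold change of each member (log2 of UQRPKM + 1) against the GC content of its longest transcript in percent, for Foxj3-ES (left) and Zbtb18-ES (right) against control, with filled and named points for an adjusted p under 0.05. Mrpl13 and Mrpl21 both rose in the deposited scaling, at 41.3% and 53.3% GC.

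The other genes of mitochondrial translation are given list by list, to be read beside the 7.54% of all rows that rose and 7.01% that fell in Foxj3-ES, with 5.31% and 6.5% in Zbtb18-ES. Of 8 mitoribosome subunits and bound factors whose symbols lie outside the rule, such as Dap3 and Oxa1l, none was called in either line (limma, 1 with an unadjusted p under 0.05 in Foxj3-ES, 0 in Zbtb18-ES), and the median was 0.24 in Foxj3-ES, against -0.12 in Zbtb18-ES. Of 14 mitochondrial translation factors, Gfm2, which acts in splitting the ribosome after termination, rose in Foxj3-ES (log2 fold change 0.61, limma, adjusted p = 0.0122), as did Mtrf1 (0.69, adjusted p = 0.0362). The initiation factor Mtif2 fell there (-0.51, adjusted p = 0.0345), and none of the 14 passed the test in Zbtb18-ES, where 2 had an unadjusted p under 0.05. These factors had a median of 0.02 in Foxj3-ES, with 0.20 in Zbtb18-ES.

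Of 25 genes for assembly of the mitoribosome and modification of its rRNA, 2 rose (8%) and 4 fell (16%) in Foxj3-ES, with a median of -0.20. In Zbtb18-ES 1 rose (4%) and 2 fell (8%), with a median of -0.21, so that apart from the 4 that fell these shares were close to those of all rows. Malsu1, an assembly factor of the large subunit, was 212, 145 and 164 UQRPKM in Foxj3-ES, 160, 184 and 151 UQRPKM in Zbtb18-ES, against 81.3, 79.7 and 96.4 in control cells. Every library of both lines exceeded every control (adjusted p = 0.00637 in Foxj3-ES, 0.0111 in Zbtb18-ES). The genes that fell in Foxj3-ES were Rnmtl1 (-1.02), Ddx28 (-0.73), Nsun4 (-0.64) and Dhx30 (-0.40), and Rpusd4 rose (0.65). In Zbtb18-ES, Rpusd3 (-0.68) and Dhx30 (-0.54) fell. With GC content and length corrected for, the medians of the 25 genes were -0.09 in Foxj3-ES and -0.01 in Zbtb18-ES. In that setting 2 rose and 2 fell in Foxj3-ES, where 8.93% of all rows rose and 7.09% fell. In Zbtb18-ES 1 rose and 1 fell, where 5.86% of all rows rose and 5.6% fell.

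Of 17 mitochondrial aminoacyl-tRNA synthetases, which charge tRNAs for this ribosome, Mars2 fell in Foxj3-ES (-1.23, adjusted p = 0.014) and Aars2 in Zbtb18-ES (-0.61, adjusted p = 0.0295). The median was -0.33 in Foxj3-ES, with -0.24 in Zbtb18-ES, and with GC content and length corrected for these values were -0.04 and -0.17. Of 8 genes for transcription and replication of mitochondrial DNA, Peo1, the replicative helicase, fell in Foxj3-ES (-1.07) and Zbtb18-ES (-0.86), and the elongation factor Tefm fell in Foxj3-ES (-0.65).

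Of 10 tested regulators of mitochondrial gene expression, Mycn, Esrra and Pprc1 fell in both lines and none rose. Mycn, a transcription factor of the Myc family, was 145, 177 and 196 UQRPKM in Foxj3-ES, 128, 153 and 119 UQRPKM in Zbtb18-ES, against 653, 685 and 654 in control cells. Its log2 fold change was -1.95 in Foxj3-ES, with -2.32 in Zbtb18-ES (limma, adjusted p = 2.03e-04 and 9.7e-05). For Esrra these values were -0.98 and -1.01, and for Pprc1 -0.78 and -1.01.

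The mRNAs that the mitochondrial ribosome translates fell or did not pass the test. Of 13 such mRNAs, 5 fell in Foxj3-ES (median -0.53) and 4 in Zbtb18-ES (median -0.26), and none rose. CYTB, a subunit of complex III, was 5560, 6554 and 5218 UQRPKM in Foxj3-ES, 7627, 7901 and 9455 UQRPKM in Zbtb18-ES, against 12115, 12448 and 12659 in control cells, and no group overlapped another. The log2 fold changes in Foxj3-ES were -1.44 for ND4L, -1.25 for ND4, -1.23 for ND2 and -1.15 for ND1, all subunits of complex I. Control library 2, which stood apart, was the highest control for each of these genes. ND4L was 1501, 2127 and 1534 UQRPKM in Foxj3-ES and 3733, 7297 and 3600 UQRPKM in control cells. The correction for GC content and length did not cover the mRNAs of mitochondrial DNA. In Zbtb18-ES, ND2 (-0.89), ND4 (-0.87), ND1 (-0.71) and CYTB (-0.58) fell.

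The members' median lay below that of the genes of the cytosolic ribosome in both lines. Of 81 cytosolic ribosomal protein genes, 42 rose and none fell in Foxj3-ES (51.9%, median 0.80), and 14 rose and none fell in Zbtb18-ES (17.3%, median 0.43). Of 75 tested nuclear genes for oxidative phosphorylation, 23 rose in Foxj3-ES (30.7%, median 0.41), and 13 rose and 1 fell in Zbtb18-ES (median 0.19). Both medians stayed positive with all libraries at an equal sum, at 0.45 and 0.10 in Foxj3-ES. In that setting the median of the mitochondrial ribosomal protein genes was -0.11 and that of all rows tested was -0.35. These lists were compared by their counts and medians, and the difference between them was not tested.

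**Figure D5:**
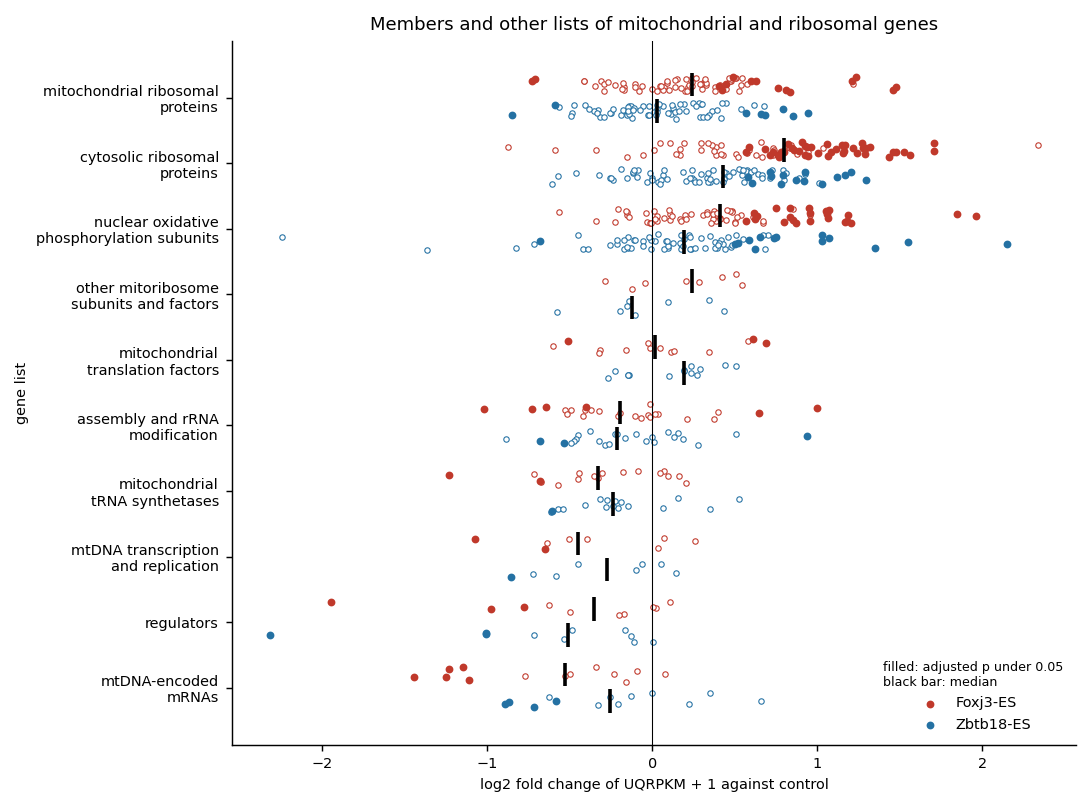
Log2 fold change (log2 of UQRPKM + 1) of each gene of 10 lists in Foxj3-ES (red, upper row of each list) and Zbtb18-ES (blue, lower row) against control, with filled points for an adjusted p under 0.05 and a black bar at the median. In the deposited scaling the medians in Foxj3-ES run from 0.80 for cytosolic ribosomal proteins through 0.24 for the members to -0.53 for mRNAs encoded in mitochondrial DNA. With all libraries at an equal sum these medians were 0.45, -0.11 and -0.87, beside -0.35 for all rows tested.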

How the data were processed

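Total RNA of 9 libraries, 3 each of Foxj3-ES, Zbtb18-ES and control J1 ESCs, was sequenced on an Ion Proton. The authors deposited upper-quartile RPKM (UQRPKM). Of tools and builds the submitters' notes name DESeq, with no version, and mm10, and the aligner, the counting and the annotation were not given in the sources used here. RPKM is not a count, so log2(UQRPKM + 1) was fitted here with limma 3.58.1 (R 4.3.3), with a trend and all 9 libraries in 1 fit, for the 22268 rows in which 3 or more libraries had a value of 1 or more. P-values were adjusted over these rows by the Benjamini-Hochberg method, and calls were made at an adjusted p under 0.05. The pseudocount understates the fold changes of low genes. Each low value is a multiple of what 1 read is worth, which gave the depth. Over 1000 bases, 1 read was worth 0.855 to 1.33 UQRPKM. For 57 members steps of 1 read and for 9 steps of 0.5 reads came out within 0.02 reads, and 10 were not resolved. The gene length used was the smallest that gave such steps, so a member's recovered count can be a multiple of its true reads.

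All 76 members were matched to GENCODE M21 by symbol. Over all rows 30996 matched by symbol, 1206 by an older symbol and 12586 not at all. Copies of the longest transcript of each member were searched with blastn 2.17.0 among the GENCODE transcripts. Tables and plots were made with Python 3.11.15, pandas 2.3.3, numpy 2.4.6 and matplotlib 3.10.9. Members and lists were chosen with earlier results of these data known. Members named were the 10 highest and 5 lowest by mean, those called against control, and, as none was called between the lines, the 3 with the smallest p there. Of each pathway list the 4 called genes with the largest change were named, except for 1 result that is not reported here. Mrps21, Mrpl12, Mrpl28 and Mrpl19 are also given with single values, the first 2 chosen after their values were seen. Alternatives covered the pseudocount, filter, scaling, fit, threshold, GC content and length, a replicate block and each library left out, and scaling by total reads was added after the data were seen.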

Additional observations from a re-analysis of the deposited data

How the results depend on the processing

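With each library left out in turn, the members higher in Foxj3-ES numbered 7 to 14 and those lower 1 to 3, and their median was 0.21 to 0.30. In Zbtb18-ES they numbered 3 to 5 and 1 to 2, with a median of -0.04 to 0.09, and against Foxj3-ES the median in Zbtb18-ES was -0.26 to -0.11 with none called.

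Rescaling to the same sum gave 6 higher and 12 lower in Foxj3-ES (median -0.11), 3 higher and 7 lower in Zbtb18-ES (median -0.13), and a median of 0.03 between the lines. Of the calls over all rows 51.8% were higher in Foxj3-ES in the deposited scaling and 15.7% after it, and in Zbtb18-ES 45% and 24.6%. Scaling by total reads gave 8 higher and 5 lower in Foxj3-ES (median 0.13) and a median of -0.04 between the lines, with 35.9% of all calls in Foxj3-ES higher. Quantile normalization gave 5 lower in Foxj3-ES and medians of 0.18 there and -0.06 between the lines. Without a trend, Foxj3-ES had 7 higher and 1 lower and Zbtb18-ES 3 and 1. With only the groups compared in the fit, 1 was lower in Foxj3-ES and 3 were higher in Zbtb18-ES, and with no filter 3 were higher there. The correction for GC content and length gave 5 lower in Foxj3-ES (median 0.13) and 3 higher in Zbtb18-ES. A threshold of 2-fold left 4 higher and 0 lower in Foxj3-ES, with 0 and 0 in Zbtb18-ES. No member called against control changed its direction under any of the 22 alternatives. The causes of these shifts were not tested.

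Same-numbered libraries did not deviate together (correlations of -0.05 to 0.08 over genes). These correlations cannot show whether such libraries were prepared together, which the labels do not say. With a replicate block Foxj3-ES had 10 members higher and 2 lower and Zbtb18-ES 6 and 2. With the replicate block and the correction together, the median in Foxj3-ES was 0.13.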

Other observations

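The table also held 4 rows with a symbol of this kind that were typed as other than mRNA and entered no count of members. Mrpl48-ps, a pseudogene 98.1% identical to Mrpl48 over 636 bases, was 209, 224 and 222 UQRPKM in Foxj3-ES, 141, 149 and 152 UQRPKM in Zbtb18-ES, against 138, 160 and 152 in control cells, and it rose in Foxj3-ES (log2 fold change 0.54, limma, adjusted p = 0.0201). Mrpl48 itself was 177, 292 and 235 UQRPKM in Foxj3-ES, 141, 131 and 120 UQRPKM in Zbtb18-ES, against 187, 131 and 250 in control cells, and it did not pass the test in Foxj3-ES (0.33, adjusted p = 0.414). Mrpl23-ps1 was 395, 470 and 492 UQRPKM in Foxj3-ES and 309, 383 and 361 UQRPKM in control cells, far above Mrpl23, which was 109, 60.3 and 135 UQRPKM in Foxj3-ES and 81.5, 66.8 and 60.4 UQRPKM in control cells. Mrps36-ps1 and Mrps36-ps2 overlapped between Foxj3-ES and control and did not pass the test in either line.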
